A study of Mus musculus with 13 samples.

Results

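The 10 immediate early genes Fos, Fosb, Junb, Egr1, Egr2, Arc, Npas4, Nr4a1, Ier2 and Dusp1 were followed in bulk RNA-seq of mouse brain. They were taken by gene name from the annotation deposited with the counts, where each name stood on 1 of 55401 gene identifiers, and all 10 passed the filter on low counts that left 14985 genes for testing. The study measured demyelination and its recovery with cuprizone, a copper chelator that is fed to mice and injures oligodendrocytes, the myelin-forming cells of the brain. Per the labels, all mice were male and aged 6 to 8 weeks, which is taken here as the age at the start of feeding and not at collection. CTL mice (n = 5) received control chow for 6 weeks, CPZ mice (n = 4) received chow with 0.3% cuprizone for 4 weeks, and RCV mice (n = 4) received the same cuprizone chow for 4 weeks and then control chow for 2 weeks. CPZ brains were thus collected at week 4, and CTL and RCV brains at week 6, so that cuprizone and the time of collection cannot be told apart in comparisons with CPZ. The protocol text of the labels speaks of 4 control, 3 cuprizone and 3 recovery mice, fewer than the 5, 4 and 4 libraries, and every RCV library carries a title that starts with Veh, so the groups and n used here follow the treatment field and the libraries. All mice were killed with CO2, and 1 frozen hemisphere per mouse gave 1 library of 4605100 to 8197289 estimated counts. In such whole-tissue RNA, fewer cells of a type and less RNA per cell cannot be told apart.

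Immediate early genes are transcribed within minutes of a stimulus, without new protein synthesis. In neurons, calcium entry at active synapses switches on kinases that act on the transcription factors CREB and SRF, which sit in advance at the promoters of these genes. Most of the encoded proteins are transcription factors with short-lived mRNAs, so the mRNA level at death reflects the last minutes to hours of an animal's life. In the brain they are used as markers of neuronal activity, although several of them also respond to growth factors, injury and handling in other cells.

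The promoter stretches of Fos, Nr4a1, Dusp1 and Egr2 are shown as examples, picked because they hold the letters that CREB and SRF are known to read. These genes also moved together between mice, as described further on, but so did others of the list that are not shown. The letters searched on both strands of the 300 bases around each start site (250 before it and 50 after) were TGACG, which is the half-site of the cyclic AMP response element, TGACGTCA, which is the full element and holds the half-site on each strand, the CArG box read by SRF, and TATAAA. RefSeq windows on GRCm38.p6 were at hand for 7 of the 10 genes, in 11 windows since Egr2 has several start sites, and Egr1, Arc and Ier2 had no entry. Capitals mark the matches, with TGACG printed as CGTCA where it lies on the other strand, and positions are counted from the start site.
Fos, chr12:85473749-85473874, plus strand, positions -141 to -16, with 2 half-sites and TATAAA: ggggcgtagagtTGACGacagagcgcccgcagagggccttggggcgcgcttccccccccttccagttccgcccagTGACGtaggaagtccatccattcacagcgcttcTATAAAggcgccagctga
Nr4a1, chr15:101266601-101266822, plus strand, positions -245 to -24, with 4 half-sites on the other strand: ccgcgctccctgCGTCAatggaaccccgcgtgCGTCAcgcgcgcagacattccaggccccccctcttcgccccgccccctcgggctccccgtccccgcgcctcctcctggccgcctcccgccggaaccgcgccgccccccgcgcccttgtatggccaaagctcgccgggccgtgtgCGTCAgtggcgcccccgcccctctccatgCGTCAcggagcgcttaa
Dusp1, chr17:26508596-26508675, minus strand, positions -203 to -124, with 1 half-site and the full element: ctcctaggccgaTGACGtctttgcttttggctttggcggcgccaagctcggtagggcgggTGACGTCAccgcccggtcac
Egr2, chr10:67537482-67537515, plus strand, positions -84 to -51, with a CArG box: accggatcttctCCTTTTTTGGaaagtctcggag
None of these 4 stretches overlapped an annotated exon in GENCODE M21, and those of Nr4a1, Dusp1 and Egr2 lay inside introns of longer transcripts of the same gene. A half-site was present in 9 of the 11 windows (3 of these 9 are overlapping windows of Egr2), against 20.8% of all 32851 windows, and each of the 7 genes had at least 1 such window, though the Egr2 window shown had none. The full element was in 1 of 11 windows, against 1.79%. A CArG box was in 4 of 11 windows, all of Egr2 with 3 of them overlapping, against 1.63%, and TATAAA in 2 of 11, those of Fos and Junb, against 13.6%. Such a match is a description of the letters in the window and was not tested, nor was any link between matches and the shared movement of the genes. Sites more than 250 bases before a start site were not searched, so a window without a match does not mean a gene without such a site.

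Most of these genes are compact. In GENCODE M21, Fos spans 3384 bases (chromosome 12, 85473890 to 85477273, plus strand), Arc 3488 bases (chromosome 15, 74669083 to 74672570, minus strand) and Ier2 1522 bases in a single exon (chromosome 8, 84661331 to 84662852, minus strand), and 8 of the 10 genes span less than 8000 bases. Exons of Junb overlap those of Prdx2, and exons of Dusp1 overlap those of Ergic1, both on the opposite strand. Whether reads were counted by strand is not given in the sources used here, so the values of Junb and Dusp1 carry this uncertainty.

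Ordered by length-scaled level in CTL brains, the list ran from the zinc finger factor Egr1 at 122 ± 44.9 TPM (SD, n = 5) to its relative Egr2 at 2.87 ± 0.800 TPM. Between them stood Arc at 66.8 ± 43.0 TPM, Nr4a1 at 59.6 ± 34.2, Junb at 38.5 ± 18.0, Dusp1 at 27.0 ± 11.7, Fos at 16.4 ± 7.31, Npas4 at 10.3 ± 2.39, Ier2 at 6.83 ± 2.34 and Fosb at 5.60 ± 0.667 TPM. In this order, 8 of the 9 neighbouring pairs had overlapping ranges over the CTL mice, and only Fosb and Egr2 did not. In CPZ 5 of 9 and in RCV 9 of 9 neighbouring pairs overlapped, with Egr1 highest and Egr2 lowest in both.

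The AP-1 factors Fos, Fosb and Junb encode leucine zipper proteins that bind DNA as pairs. Levels of single genes are given in CPM, the counts scaled to a common library size, with factors from the trimmed mean of M-values (TMM). Fos was measured at 20.1, 14.3, 18.3, 6.73 and 6.79 CPM in CTL 1 to CTL 5, 15.8, 25.8, 17.6 and 17.6 CPM in CPZ 1 to CPZ 4 and 5.72, 17.0, 32.1 and 24.1 CPM in RCV 1 to RCV 4. CTL 4, CTL 5 and RCV 1 were low, RCV 3 was highest, and the 3 groups overlapped. The log2 fold change of Fos was 0.52 for CPZ against CTL (95% interval -0.44 to 1.49) and 0.53 for RCV against CTL (-0.47 to 1.53), with adjusted p = 0.572 and 0.976 in edgeR's quasi-likelihood test. Fosb, whose splice form ΔFosB accumulates under repeated stimulation, was measured at 9.11, 10.8, 11.4, 8.56 and 8.80 CPM in CTL 1 to CTL 5, 9.08, 10.1, 7.49 and 11.4 CPM in CPZ 1 to CPZ 4 and 5.72, 6.80, 18.1 and 12.1 CPM in RCV 1 to RCV 4. Its CTL mice lay close together, with the highest 1.33 times the lowest, while RCV mice differed by 3.16 times. Junb, which pairs with Fos proteins, was measured at 43.4, 50.4, 28.6, 18.0 and 17.1 CPM in CTL 1 to CTL 5, 39.3, 46.1, 35.4 and 28.9 CPM in CPZ 1 to CPZ 4 and 25.4, 32.6, 68.5 and 60.5 CPM in RCV 1 to RCV 4. The same 2 CTL mice were again lowest, RCV 3 and RCV 4 lay above all other libraries, and no comparison of Fosb or Junb passed the test, with log2 fold changes between -0.30 and 0.54.

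Egr1 and Egr2 encode zinc finger factors. Egr1 was measured at 181, 286, 194, 112 and 132 CPM in CTL 1 to CTL 5, 155, 157, 179.9 and 206 CPM in CPZ 1 to CPZ 4 and 100.3, 122, 196 and 211 CPM in RCV 1 to RCV 4. CTL 2 stood highest, and the mean in RCV lay below that in CTL, the opposite side to the other 9 genes, at a log2 fold change of -0.21 (-0.84 to 0.42, edgeR adjusted p = 0.986). Egr2 was the only gene of the list whose CPZ and CTL mice did not overlap, and it was measured at 5.03, 4.35, 2.92, 0.917 and 1.47 CPM in CTL 1 to CTL 5, 5.91, 5.83, 5.69 and 5.42 CPM in CPZ 1 to CPZ 4 and 1.61, 4.54, 11.5 and 11.3 CPM in RCV 1 to RCV 4. The 4 CPZ libraries were nearly level, above all 5 CTL libraries, while RCV spread on either side of them. The fitted difference between CPZ and CTL was 0.93 on the log2 scale (-0.20 to 2.05) and did not pass, with an adjusted p = 0.340 in edgeR's test. Groups without overlap were found for 13.1% of all genes in this comparison, so 1 of 10 is near that background. Egr2 rested on few reads, with 6 counts in CTL 4 and 8 in CTL 5, and in TPM, CTL 5 stood at 3.43 rather than near CTL 4 at 1.76. CPZ and CTL mice did not overlap in TPM either, with 4.65 to 5.93 TPM against 1.76 to 3.68 TPM.

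Npas4 encodes a factor that responds to calcium influx in neurons and is little induced by other stimuli. Npas4 was measured at 20.7, 20.9, 15.8, 11.8 and 13.2 CPM in CTL 1 to CTL 5, 16.4, 19.3, 16.2 and 11.6 CPM in CPZ 1 to CPZ 4 and 16.0, 22.4, 35.0 and 27.8 CPM in RCV 1 to RCV 4. All groups overlapped, and RCV 3, RCV 4 and RCV 2 were the highest libraries. It had the smallest unadjusted p of the list, at a log2 fold change of 0.60 for RCV against CTL (0.10 to 1.10, edgeR adjusted p = 0.625) and -0.65 for CPZ against RCV (-1.18 to -0.13, edgeR adjusted p = 0.148). Without RCV 1 the latter became -0.83 with adjusted p = 0.0496, the only setting of all those tried in which a gene of the list passed. Nr4a1, an orphan nuclear receptor, was measured at 92.7, 98.6, 75.0, 24.5 and 24.9 CPM in CTL 1 to CTL 5, 44.1, 45.2, 53.3 and 41.3 CPM in CPZ 1 to CPZ 4 and 30.8, 50.1, 108 and 93.2 CPM in RCV 1 to RCV 4. CTL fell into 3 high and 2 low mice, 4.03 times apart at the extremes, and the CPZ mice lay between them. Its log2 fold change was -0.47 for CPZ against CTL (-1.55 to 0.61) and did not pass (edgeR adjusted p = 0.664).

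Arc encodes a synaptic protein that promotes the removal of AMPA receptors, and its mRNA travels into dendrites. Arc was measured at 118, 174, 127, 26.8 and 37.4 CPM in CTL 1 to CTL 5, 72.6, 89.9, 100.2 and 47.3 CPM in CPZ 1 to CPZ 4 and 34.7, 94.0, 163 and 139.6 CPM in RCV 1 to RCV 4. Among the CTL mice it differed most of the 10 genes, with the highest 6.49 times the lowest, while among the RCV mice Egr2 did, at 7.16 times. Its log2 fold change for CPZ against CTL was -0.32, with an interval from -1.61 to 0.96 (edgeR adjusted p = 0.821). Dusp1 encodes a phosphatase that switches off MAP kinases and so limits the signal that induces these genes. Dusp1 was measured at 35.6, 31.2, 24.6, 11.8 and 12.3 CPM in CTL 1 to CTL 5, 20.0, 25.8, 24.4 and 15.1 CPM in CPZ 1 to CPZ 4 and 14.4, 29.8, 37.1 and 34.0 CPM in RCV 1 to RCV 4. CTL 4, CTL 5 and RCV 1 were low here too, and CPZ 4 came next. Ier2, a small nuclear protein, was measured at 5.44, 6.00, 5.84, 2.45 and 3.30 CPM in CTL 1 to CTL 5, 7.35, 8.87, 5.41 and 5.42 CPM in CPZ 1 to CPZ 4 and 3.37, 8.26, 8.28 and 7.59 CPM in RCV 1 to RCV 4. RCV 1 stood apart from the other 3 RCV mice, which lay within 1 CPM of each other, and the log2 fold changes of Ier2 against CTL were 0.55 in CPZ and 0.55 in RCV, neither passing the test (edgeR adjusted p = 0.304 and 0.863).

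**Figure D1:**
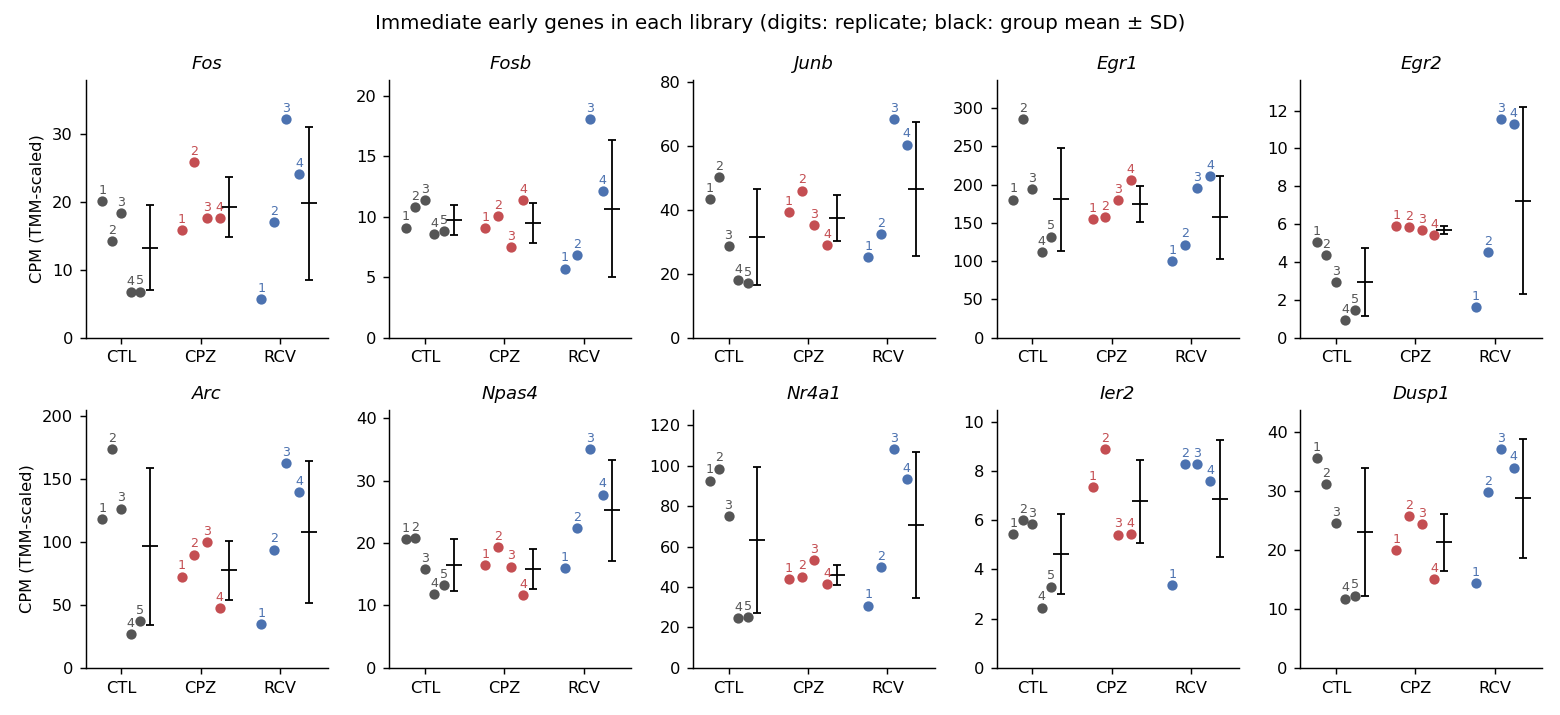
Each panel plots the TMM-scaled level (CPM, linear axis from 0) of 1 gene, with 1 point per library numbered by replicate and the group mean ± SD in black (CTL n = 5, CPZ n = 4, RCV n = 4). CTL 4, CTL 5 and RCV 1 sit at the bottom of their groups in nearly all panels, and Egr2 is the only gene with all CPZ points above all CTL points.

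Across the list, none of the 10 genes passed an adjusted p of 0.05 in any of the 3 comparisons by edgeR, DESeq2 or limma-voom. The same threshold was passed by 10.2% of all genes for CPZ against CTL, by 0.374% for RCV against CTL and by 7.01% for CPZ against RCV. At an unadjusted p below 0.05, edgeR counted 0, 2 and 1 of the 10 genes (DESeq2 0, 2 and 1, limma-voom 0, 1 and 1), against 22.1%, 6.20% and 19.1% of all genes. The 2 genes for RCV against CTL were Npas4 and Egr2, the latter at a log2 fold change of 1.22 (adjusted p = 0.737), and the gene for CPZ against RCV was Npas4. Groups without overlap numbered 1, 0 and 0 of the 10 genes, against 13.1%, 2.90% and 13.2% of all genes.

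The median log2 fold change of the 10 genes was -0.04 for CPZ against CTL, with 4 genes above 0, and the median of all genes was -0.02. For RCV against CTL the median was 0.41 with 9 of 10 above 0 (all genes -0.004), and for CPZ against RCV it was -0.30 with 1 of 10 above 0 (all genes -0.01). These directions depended on which RCV mice were kept. RCV 3 and RCV 4 lay above the RCV mean in 10 of 10 genes, so leaving them out had to lower the RCV level. With both left out, Fos, Fosb, Junb, Arc, Nr4a1 and Dusp1 turned negative for RCV against CTL, at -0.25, -0.64, -0.14, -0.60, -0.66 and -0.09 on the log2 scale, and a still smaller group of 2 RCV mice remained. RCV 1 was the lowest RCV mouse in 10 of 10 genes, so leaving it out had to raise the RCV level. Without it, 4 of the 10 had an unadjusted p below 0.05 for RCV against CTL in edgeR, and 0 of these passed after adjustment. The share of all genes below that unadjusted p was not computed for this fit. The intervals show what 4 and 5 mice could resolve, as the narrowest for CPZ against CTL, that of Npas4, ran from 0.677 to 1.37 times, and that of Arc from 0.329 to 1.94 times. The 2 comparisons with CTL share the CTL mice, the 2 with CPZ share the CPZ mice and the 2 with RCV share the RCV mice. Their fold changes are thus not independent of each other, and the opposite directions of RCV against CTL and CPZ against RCV are not separate results.

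**Figure D2:**
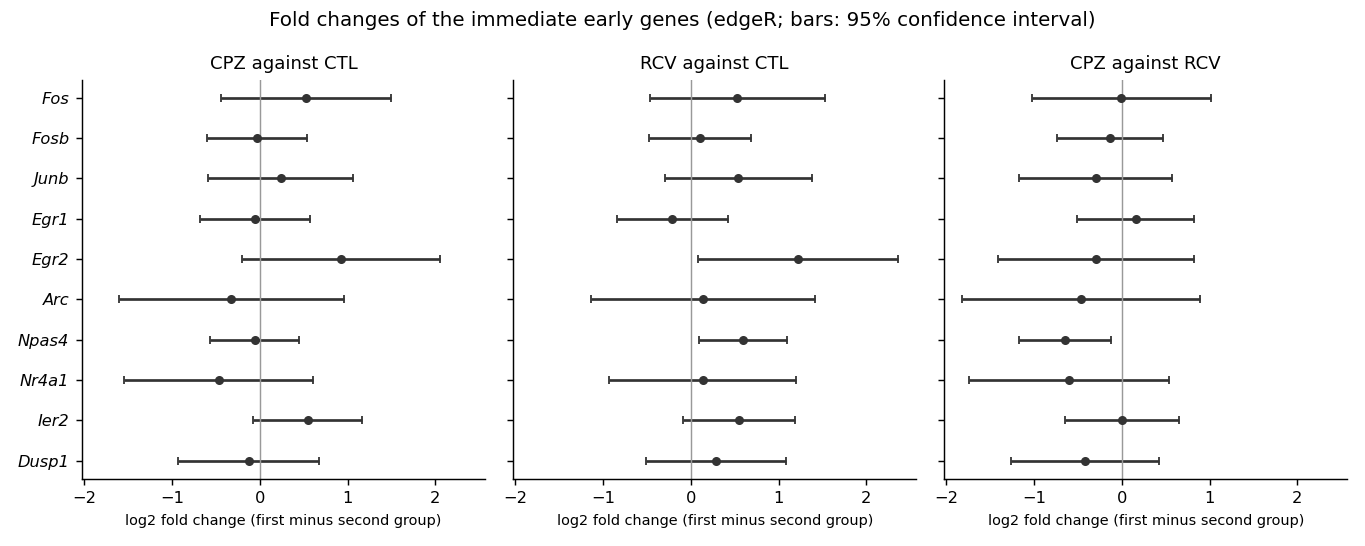
Each panel shows 1 comparison, with the log2 fold change of each gene (first minus second group, point) and its 95% confidence interval from the edgeR fit (bar). Of the 30 intervals, 27 include 0, and those of Egr2 and Npas4 in RCV against CTL and of Npas4 in CPZ against RCV do not.

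The larger differences lay between mice of the same group. After the group mean was subtracted from each gene's log2-CPM, CTL 4 and CTL 5 lay below their group mean in 10 of 10 genes each, by 0.81 and 0.62 on average on the log2 scale, while CTL 2 lay above it in 10, CTL 1 in 9 and CTL 3 in 8 genes. In RCV, the RCV 1 mouse was the lowest of its group in 10 of 10 genes, with deviations from -1.64 (Egr2) to -0.58 (Egr1), and RCV 3 and RCV 4 lay above the mean in all 10, by 0.68 and 0.47 on average. The CPZ mice stayed closer together, with mean deviations between -0.20 in CPZ 4 and 0.20 in CPZ 2. The summed level of the 10 genes ran from 223.7 to 696 CPM over the CTL mice, from 238 to 677 CPM over the RCV mice and from 385 to 446 CPM over the CPZ mice. Whether the spread differs between groups was not tested.

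**Figure D3:**
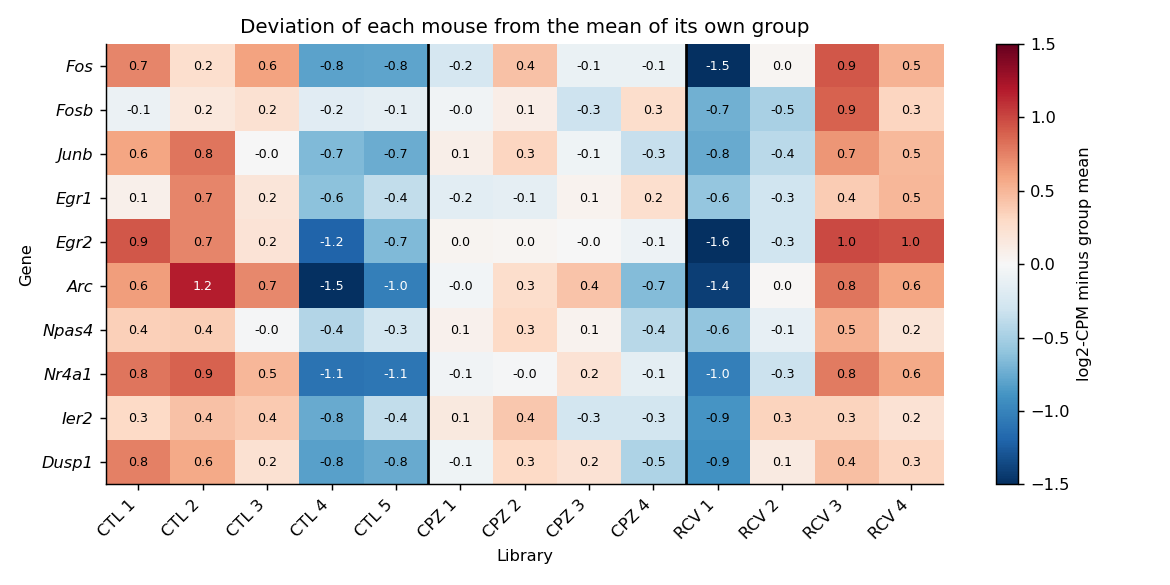
The colour and the printed value give log2-CPM minus the mean of the mouse's own group, for each gene (rows) and library (columns, groups divided by black lines). CTL 4, CTL 5 and RCV 1 are blue from top to bottom, RCV 3 and RCV 4 are red, and the CPZ columns are pale.

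Such spread was far above counting error. The SD of log2-CPM within groups was 0.39 for Npas4, the steadiest of the list, and 0.96 for Arc, the most variable, against a median of 0.18 over all genes tested. The 10 genes stood between the 84.7th (Npas4) and the 98.6th (Arc) percentile of all genes by this SD. For Arc, counts averaged 605 per library, at which counting error alone gives a coefficient of variation of 4.06%, whereas the fitted biological coefficient was 58.5%, or 5.74 times the trend at its level. For Ier2, with 39.2 counts on average, these values were 16.0%, 27.2% and 1.38 times.

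The genes of the list rose and fell together from mouse to mouse. Over the 13 libraries with group means removed, Pearson's r with Fos was 0.92 for Egr2, 0.90 for Dusp1, 0.89 for Nr4a1, 0.89 for Ier2, 0.88 for Arc, 0.86 for Npas4, 0.84 for Junb, 0.74 for Egr1 and 0.73 for Fosb. In the exact permutation of mice within groups, which has 69120 orders, p ran from 0.00165 (Dusp1) to 0.0213 (Egr1), and from 0.00705 to 0.0213 after Benjamini-Hochberg adjustment over these 9 relations. Spearman's rho ran from 0.64 (Fosb) to 0.91 (Dusp1), with exact permutation p from 0.00114 to 0.0379 and adjusted p from 0.0089 to 0.0379. On log2(TPM + 1) the relation of Egr2 fell to r = 0.68 (rho = 0.47) and did not pass (exact permutation, adjusted p = 0.0504 and 0.205), while the other 8 passed at r of 0.72 to 0.91. By Pearson's r with single mice left out, Egr1 no longer passed without CTL 4, RCV 1, RCV 3 or RCV 4, at r of 0.65 to 0.72, and Fosb without RCV 3 or RCV 4, at 0.66 and 0.71. Over all 45 pairs of the 10 genes, r had a median of 0.87, and 44 pairs stood above 0.5, with a range of 0.46 to 0.96.

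The mice farthest from the median of Fos were RCV 1 and RCV 3, at deviations of -1.49 and 0.94. Without them, r with Fos stayed between 0.47 (Fosb) and 0.89 (Dusp1), and Egr2, Nr4a1, Arc, Ier2 and Junb kept values of 0.81 to 0.89. By r none passed after adjustment in these 11 libraries (exact permutation, adjusted p from 0.0529 to 0.12), which allow fewer orders of the mice than all 13. By rho Dusp1 passed, at 0.92 with adjusted p = 0.0484 in the same permutation, and the others did not. Without any RCV library, r was between 0.47 and 0.90 and the adjusted p at least 0.0982, without any CTL library it was between 0.77 and 0.94, and without any CPZ library between 0.77 and 0.95. With RCV 3 and RCV 4 left out, 7 of the 9 relations passed by r at an adjusted p of 0.0491, and those of Fosb (r = 0.53) and Egr1 (r = 0.60) did not. By rho none passed, with the lowest adjusted p at 0.0568 (exact permutation).

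Tissue content and library measures were set beside these values. Among 14 of them, comprising depth, the mitochondrial share, the share of 1 ribosomal RNA gene and 11 marker scores, none passed a relation with Fos over the 13 libraries (exact permutation within groups, adjusted p = 0.977 for each). Over all 13 libraries, the largest coefficients were those of the choroid plexus score (r = -0.45, rho = -0.49, and r = -0.49 without its 2 farthest mice) and of the endothelial score (r = 0.42, rho = 0.30, then 0.29), and depth stood at r = -0.14 (rho = -0.02, then 0.51). Without the 2 farthest mice of each measure, the hippocampal score (r = -0.55), the inhibitory neuron score (0.54) and the mitochondrial share (0.51) also reached this size, from -0.02, 0.18 and 0.09 over all mice. RCV 3 and RCV 4, high in all 10 genes, had the lowest scores of 5 choroid plexus genes, 0.71 and 1.12 in mean log2-CPM against 4.09 to 6.67 in the other 11 libraries, and with 5346794 and 4605100 counts they were the shallowest. RCV 1, low in all 10, had 4.40 for the choroid plexus and 6990717 counts, and CTL 4 and CTL 5 had 4.90 and 5.11, inside the range of the other mice. The score of 8 striatal neuron genes ran from 3.69 (RCV 3) to 7.46 (CTL 2), so the libraries differed in the RNA of these markers. Whether the hemispheres differed in regional content was not tested. Markers of the labelled tissue were present in every library, as the 10 genes of cortical excitatory neurons summed to 2306.5 to 3851 CPM. The part of these differences in the immediate early genes was not tested beyond these relations and the fits with a score as covariate.

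In likeness to Fos over the 14985 genes tested, Egr2 ranked at 1, Dusp1 at 3, Nr4a1 at 6, Ier2 at 7 and Arc at 8. Npas4 was at rank 12, Junb at 14, Egr1 at 54 and Fosb at 66. Outside the list, the genes most like Fos by r were Alg6 (0.91), Iws1 (0.90), Exosc1 (0.90), Hdhd5 (0.88), Ccdc171 (0.87), Dnase1l2 (0.86), Pdgfb (0.85) and Pla2g4b (0.84), none of which is on the lists of activity genes used here. These values are a description over 13 libraries that share their group means.

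A list of other rapid immediate early genes held 40 names, with Ccn1 also under its older name, and 36 genes of it were tested. These had a median r with Fos of 0.52, and 20 of the 36 stood above 0.5, against 4.40% of all genes. Genes listed as late activity-response, which tend to follow later though not all of them need new protein, had a median of -0.13, with 1 of 17 above 0.5. Upstream kinases and transcription factors had a median of -0.03, with 1 of 24 above 0.5. The lists were not tested against each other.

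**Figure D4:**
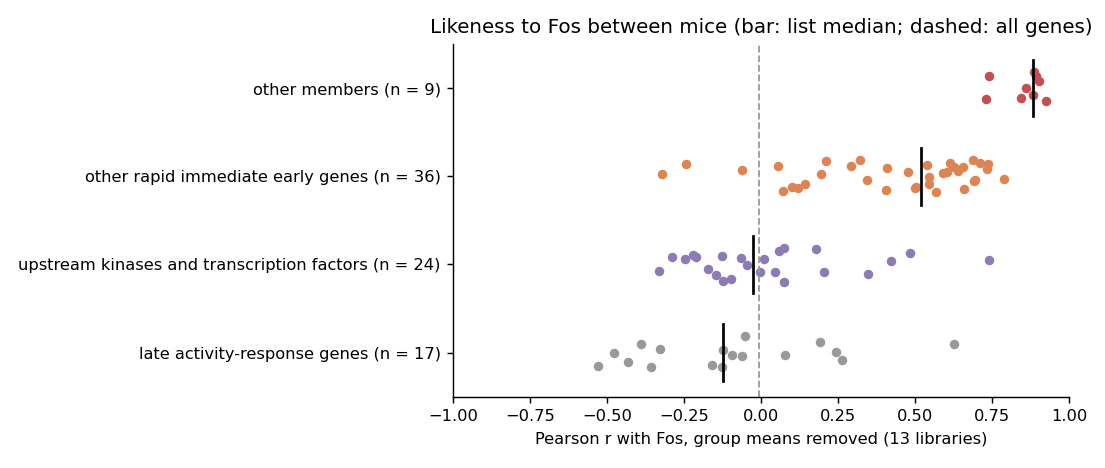
Each point is the Pearson r of 1 gene with Fos over the 13 libraries after group means were removed, with the list on the vertical axis, the list median as a black bar and the median of all genes (-0.006) as a dashed line. The other 9 members lie at 0.73 and above, and the other rapid immediate early genes spread from -0.32 to 0.79.

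Of the other rapid immediate early genes, 7 of 36 were called higher and 0 lower for CPZ against CTL, or 19.4% against 7.66% of all genes called higher. They were Maff, a small leucine zipper factor, at a log2 fold change of 2.64 (95% interval 1.76 to 3.53, edgeR adjusted p = 0.000356), Ccn1, a secreted matrix protein, at 1.76 (0.98 to 2.54, adjusted p = 0.00492), Zfp36, which directs the decay of cytokine mRNAs, at 1.74 (1.27 to 2.21, adjusted p = 4.4e-05), Gadd45b at 0.79 (0.38 to 1.20, adjusted p = 0.0131), Gadd45g at 0.60, Sgk1 at 0.59 and Klf6 at 0.30. Mean levels were 3.95 CPM in CPZ and 0.602 CPM in CTL for Maff, and 10.3 and 3.08 CPM for Zfp36. The fold change of Maff thus rested on few reads in CTL. The median over the 36 genes was 0.08, so the called genes were a minority. For RCV against CTL 0 of 36 were called, against 0.374% of all genes, and 4 had an unadjusted p below 0.05, against 6.20% of all genes. These 4 were led by Zfp36 at 0.75 (edgeR adjusted p = 0.362) and Csrnp1 at 0.49 (adjusted p = 0.691). For CPZ against RCV, Maff (1.55, adjusted p = 0.0284), Zfp36 (0.99, adjusted p = 0.0124) and Klf6 (0.29, adjusted p = 0.0402) were called higher in CPZ, or 8.33% against 5.13% of all genes, and this count fell to 0 without CPZ 2 and to 1 without RCV 3 and RCV 4.

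Markers of microglia and some of those of astrocytes were also called higher in CPZ, and markers of mature oligodendrocytes were called lower. Of the microglial markers, 12 of 12 passed with a higher level in CPZ, both against CTL (median log2 fold change 2.53) and against RCV (1.65), their summed level was 1360.5 to 2839.7 CPM in CPZ, 391 to 466 CPM in CTL and 595 to 829 CPM in RCV, and 10 of 10 markers of mature oligodendrocytes were called lower in CPZ in both comparisons. Of the astrocyte markers, 4 of 7 passed with a higher level in CPZ against CTL, up to 2.43 on the log2 scale for the filament protein gene Gfap, and 2 of 7 against RCV, and their summed level was 4871 to 5873 CPM in CPZ, 4150.5 to 4584 CPM in CTL and 4893 to 5524 CPM in RCV. The part of these cells in the called genes was not tested. The marker lists of cortical (10 genes), striatal (8) and inhibitory neurons (7) had 0 called genes in all 3 comparisons. That of hippocampal neurons (8) had 1 called lower in CPZ than in RCV. Over all genes, 10.2%, 0.374% and 7.01% were called in the 3 comparisons, so few or no calls in lists this small lie near that background.

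**Figure D5:**
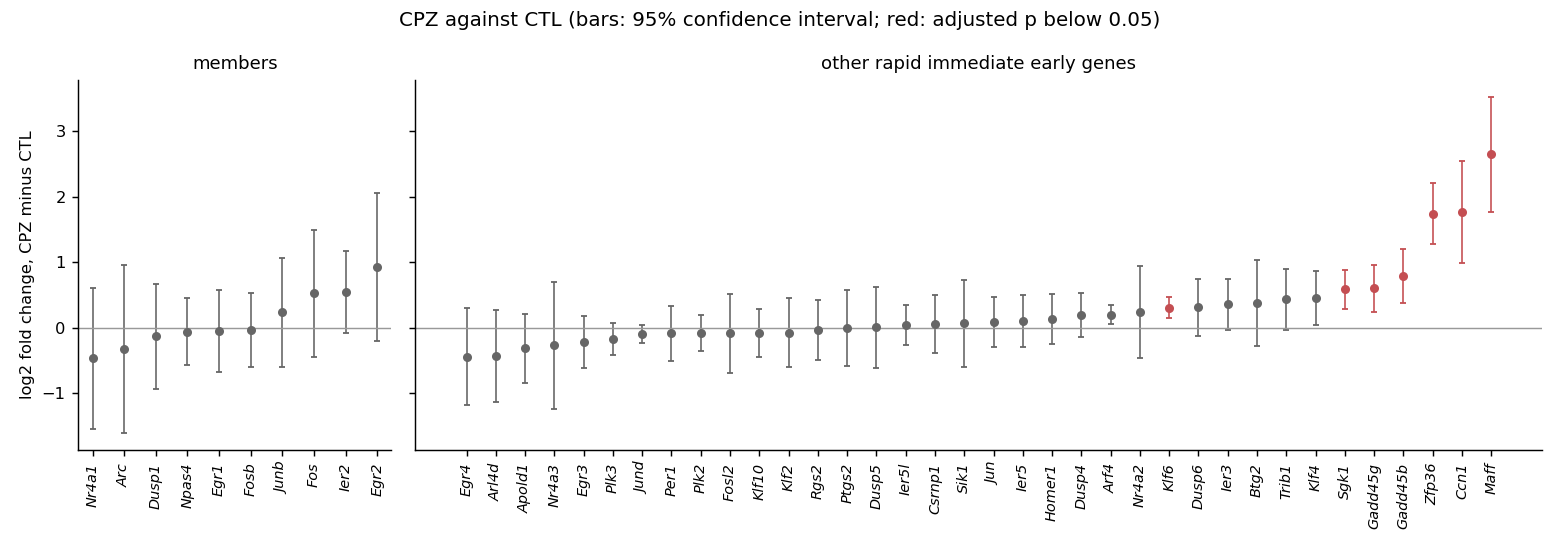
Points give the log2 fold change of CPZ minus CTL and bars its 95% confidence interval from the edgeR fit, for the 10 members (left) and 36 other rapid immediate early genes (right), each sorted by value. The 7 red points, all on the right, have an adjusted p below 0.05, from Klf6 at 0.30 to Maff at 2.64.

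Of the late activity-response genes, 0 of 17 were called in any comparison when no covariate was fitted, and 1, 2 and 2 had an unadjusted p below 0.05 in the order of the comparisons above. Over all genes, 10.2%, 0.374% and 7.01% were called in edgeR, and 22.1%, 6.20% and 19.1% had such an unadjusted p. The smallest p belonged to the neuropeptide precursor Vgf for CPZ against CTL, at a log2 fold change of -0.29 (edgeR adjusted p = 0.141, and -0.32 with adjusted p = 0.0315 when the hippocampal score was a covariate), and to the synaptic pentraxin Nptx2 for RCV against CTL, at -0.50 (adjusted p = 0.233), and for CPZ against RCV, at 0.35 (adjusted p = 0.193). Next came somatostatin (Sst, -0.17), the prohormone convertase Pcsk1 (-0.34) and Crem (0.45) in these comparisons. Of the upstream genes, the kinase Rps6ka1 was called higher for CPZ against CTL at 0.80 (edgeR adjusted p = 0.000171), 1 of 24 tested or 4.17%, against 7.66% of all genes. With Nfatc3 (0.37, adjusted p = 0.0233) it was also called higher in CPZ than in RCV at 0.45 (adjusted p = 0.0347), 2 of 24 or 8.33%, against 5.13% of all genes. This count of 2 was 0 without CPZ 2, without RCV 1, without RCV 4, without RCV 3 and RCV 4 together and with the choroid plexus score as covariate, 1 without CPZ 1, CPZ 4 or RCV 3 and with limma-voom, the replicate block or only the 2 groups compared in the fit, 0 or 1 on TPM, and 4 without RCV 2. None of the 24 was called for RCV against CTL, where 1 had an unadjusted p below 0.05, against 0.374% and 6.20% of all genes.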

How the data were processed

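Total RNA of 1 hemisphere per mouse was made into libraries with the Kapa mRNA HyperPrep Kit and sequenced as paired-end reads of 50 bases. Per the labels, the submitters' processing notes name STAR, RSEM and the build mm10, without versions. The authors deposited estimated counts per gene and library, not scaled to depth, of which 4.45% were not whole, and these were rounded before fitting. The authors also deposited TPM values, scaled by them to transcript length and library size. Groups were taken from the treatment field of the labels, also for the RCV columns, whose names begin with Veh, and 92 spike-in identifiers summed to 0 counts.

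With edgeR 4.0.16, low genes were removed by filterByExpr and libraries scaled by TMM, and all 13 libraries entered 1 quasi-likelihood fit with robust dispersion, with Benjamini-Hochberg adjustment over 14985 genes (R 4.3.3). DESeq2 1.42.0, limma 3.58.1 (voom, and trend on log2 TPM after adding 1 or 0.1, for genes that reached 1 TPM in at least 4 libraries), other filters and scalings, covariates and left-out libraries were the alternatives. Log2-CPM used a prior count of 2. Covariation was tested by exact permutation within groups (Python 3.11.15, numpy 2.4.6). The fit was checked on simulated counts. Depth, at 4605100 to 8197289 counts, left Egr2 and Ier2 with the fewest reads, and intervals cover the spread between mice. Coordinates and promoters came from GENCODE M21 and RefSeq, matched by identifier, with 2 of 10 genes (Junb, Ier2) matching without the version number.

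The members and gene lists were chosen with earlier results of these data known. The genes named were all members and, per list and comparison, up to 4 called genes with the largest change or else the 2 with the smallest p, and the 8 others most like Fos. Gadd45g, Sgk1 and Klf6 were named beyond this rule after their values were seen.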

Additional observations from a re-analysis of the deposited data

Results flagged for a closer look

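Each of the 10 genes was examined in each of the 3 groups, or 30 sets of 4 or 5 mice, for a mouse far from the others of its group. The rule for such gaps is met by chance in about 1 of 20 sets, and 1 set met it. Ier2 in RCV 1 stood at 1.88 on the log2-CPM scale (3.37 CPM), against 2.98 to 3.10 in the other 3 RCV mice, so that the gap took up 0.902 of the whole range. RCV 1 was also the lowest RCV mouse in the other 9 genes, where the remaining mice spread more widely.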

How the results depend on the processing

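None of the 10 genes passed in any comparison under the settings tried, except Npas4 for CPZ against RCV without RCV 1, so the count of passing genes for CPZ against RCV ran from 0 to 1 with single mice left out. Of 827 recomputed fold changes of the 10 genes, 739 kept both their direction and their side of the threshold. That of Npas4 for CPZ against RCV without RCV 1 kept its direction and passed. A further 87 changed sign, none of them past the threshold on either side, and causes of the changes were not tested. The values that changed sign follow, on the log2 scale. For CPZ against RCV they were 0.027 for Fos and 0.030 for Ier2 with library totals only, 0.31 for Fos, 0.050 for Fosb, 0.18 for Egr2 and 0.089 for Ier2 with limma-voom, 0.20 for Fos, 0.13 for Egr2 and 0.019 for Ier2 on log2(TPM + 1) with and without its filter, 0.22 for Fos, 0.19 for Egr2 and 0.027 for Ier2 on log2(TPM + 0.1), 0.026 for Fos and 0.026 for Ier2 without a count filter, 0.011 for Fos and 0.015 for Ier2 with at least 10 counts in every library, and for Fos 0.044 and 0.048 with the striatal or the hippocampal score as covariate. With limma-voom, Egr1 stood at 0.013 for CPZ against CTL and Fosb at -0.087 for RCV against CTL. The remaining settings were added after the low choroid plexus scores of RCV 3 and RCV 4 were seen. With this score as covariate, the values were 0.0088 for Fosb for CPZ against CTL, -0.029 for Fos, -0.45 for Fosb, -0.0096 for Junb, -0.22 for Arc and -0.39 for Nr4a1 for RCV against CTL, and 0.59 for Fos, 0.46 for Fosb, 0.31 for Junb, 0.69 for Egr2 and 0.11 for Ier2 for CPZ against RCV. With both mice left out, they were -0.25 for Fos, -0.64 for Fosb, -0.14 for Junb, -0.60 for Arc, -0.66 for Nr4a1 and -0.088 for Dusp1 for RCV against CTL and 0.78 for Fos, 0.61 for Fosb, 0.38 for Junb, 0.91 for Egr2, 0.28 for Arc, 0.20 for Nr4a1 and 0.24 for Ier2 for CPZ against RCV.

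With single mice left out, fold changes for CPZ against CTL ran from -0.13 to 0.072 for Fosb, -0.18 to 0.17 for Egr1, -0.17 to 0.069 for Npas4 and -0.30 to 0.086 for Dusp1. For RCV against CTL they ran from -0.28 to 0.33 for Fosb, -0.39 to 0.016 for Egr1, -0.13 to 0.46 for Arc and -0.16 to 0.39 for Nr4a1. For CPZ against RCV they ran from -0.33 to 0.35 for Fos, -0.36 to 0.25 for Fosb, -0.012 to 0.34 for Egr1, -0.66 to 0.047 for Egr2 and -0.25 to 0.11 for Ier2. What the replicate numbers in the titles stand for is not stated. Same-numbered mice had correlations of deviations from -0.20 to 0.14, which show no clear pairing but, in such small groups, cannot exclude a weak one. With the replicate block 0 of the 10 genes passed, Nr4a1 stood at -0.067 for RCV against CTL, and Fos and Ier2 at 0.046 and 0.0027 for CPZ against RCV. Only 1 of 8 mice correlated best with its own number for RCV against CTL, and 0 of 8 in the other comparisons.

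The count of other rapid immediate early genes called for CPZ against RCV, 3 in the fit reported, was 0 under the 3 TPM fits and with the choroid plexus score, 1 with the replicate block, 1 without RCV 3 and RCV 4, and 0 to 4 with single mice left out. For CPZ against CTL it was 7 and fell to 4 on TPM without a filter. Over all genes, the 56 calls for RCV against CTL became 123 with DESeq2, 12 with limma-voom, 22 on TPM without a filter, 20 with at least 10 counts in every library, 34 without RCV 3 and RCV 4 and 21 to 87 with single mice left out. The 1050 calls for CPZ against RCV became 487 to 599 on TPM, 586 with the choroid plexus score and 556 without RCV 3 and RCV 4, and 632 without CPZ 1 and 693 without CPZ 2, and the 1522 for CPZ against CTL became 992 on TPM without a filter. Of 189 recomputed Pearson correlations with Fos, 0 changed sign and 30 no longer passed, among them Egr2 on log2(TPM + 1) at r = 0.68.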
